A study of Arabidopsis thaliana with 18 samples.

Results

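The 5 genes CLE41, CLE44, MOL1, LHW and PHV bear on cambium activity or on procambium, the tissue from which xylem and phloem arise. For short they are called procambium genes here. They were taken by gene symbol from the probe sets that the platform table maps to a single gene, and are 5 of the 16411 genes that could be tied to a locus. Each was measured by 1 probe set, and no other probe set in the table held the same values. Signal was measured in cotyledons of 6-day-old Arabidopsis thaliana plants of 3 genotypes: Col (the wild type, WT) and the insertion mutants bes1-1 and bes1-3, both T-DNA lines. The labels do not state how much BES1 function each allele keeps, and the BES1 transcript was not analysed here. Each genotype was sampled uncultured (0 h) and after 72 h in VISUAL, a culture in which leaf mesophyll cells are turned into vascular cells. The medium, which all 72 h groups shared, held bikinin (10 µM), which inhibits GSK3-like kinases, with kinetin (0.25 mg/L), a cytokinin, and 2,4-D (1.25 mg/L), an auxin. The 18 arrays formed 6 groups of 3, numbered replicates 1 to 3. Separate plants or cultures for the replicates are not mentioned in the labels, and the p-values here therefore reflect the spread among these arrays alone, which may be technical.

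CLE41 and CLE44 encode TDIF, a short peptide of the CLE family that is released from phloem cells. TDIF is perceived by the receptor kinase PXY (TDR) on procambial cells, where it keeps the cells dividing through the transcription factor WOX4 and holds back their differentiation to xylem. The latter branch runs through GSK3-like kinases such as BIN2, which inhibit BES1, and bikinin acts on the same kinases. MOL1 is a leucine-rich repeat receptor-like kinase that restrains cambium activity in the stem. LHW (LONESOME HIGHWAY) is a bHLH transcription factor that pairs with TMO5 to promote division of vascular cells, and PHV (PHAVOLUTA) is a class III HD-ZIP transcription factor of adaxial identity and vascular patterning. PXY, WOX4, TMO5, BIN2 and the other HD-ZIP III genes have no probe set that the platform table maps to them alone. They were not analysed here.

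The 6 arrays of replicate 1 lay on a lower scale than the others, with a median log2 signal of 5.19 to 5.46 against 5.91 to 6.25 on the 12 arrays of replicates 2 and 3. As every group had 1 array in each replicate number, genotype and time were balanced across this shift in scale. It can widen the spread within a group, and values are therefore also given within each replicate number. Not every gene followed the shift: PHV in bes1-1 at 72 h was highest in replicate 1 (9.22, against 9.07 and 9.18). Of 11 mesophyll and photosynthesis markers 4 were measured, and all 4 lay above the lower quartile of the arrays in every group. In bulk tissue, fewer cells of a type and less RNA per cell cannot be told apart.

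All 5 genes rose over 72 h of culture in WT, in bes1-1 and in bes1-3. CLE44 rose most, by 4.22 ± 0.57 (log2 difference ± SE of the limma fit) in WT, 4.60 ± 0.57 in bes1-1 and 4.00 ± 0.57 in bes1-3, which are 18.7-fold, 24.3-fold and 16.0-fold. The other 4 genes rose by 0.78 to 1.55 on the log2 scale. A gene was called at a Benjamini-Hochberg adjusted p below 0.05 over all 38408 probe sets, and by that rule 8.7% of all probe sets were called higher in WT, 10.9% in bes1-1 and 10.3% in bes1-3. Of all probe sets 5.8% were called higher in all 3 genotypes, as all 5 of these genes were. The median log2 difference of the 5 genes was 1.26 in WT, 1.53 in bes1-1 and 1.33 in bes1-3, against -0.03, 0.03 and 0.03 over all probe sets. The 5 genes and the background are set side by side as a description, since the genes were picked with earlier results of these data known.

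**Figure D1:**
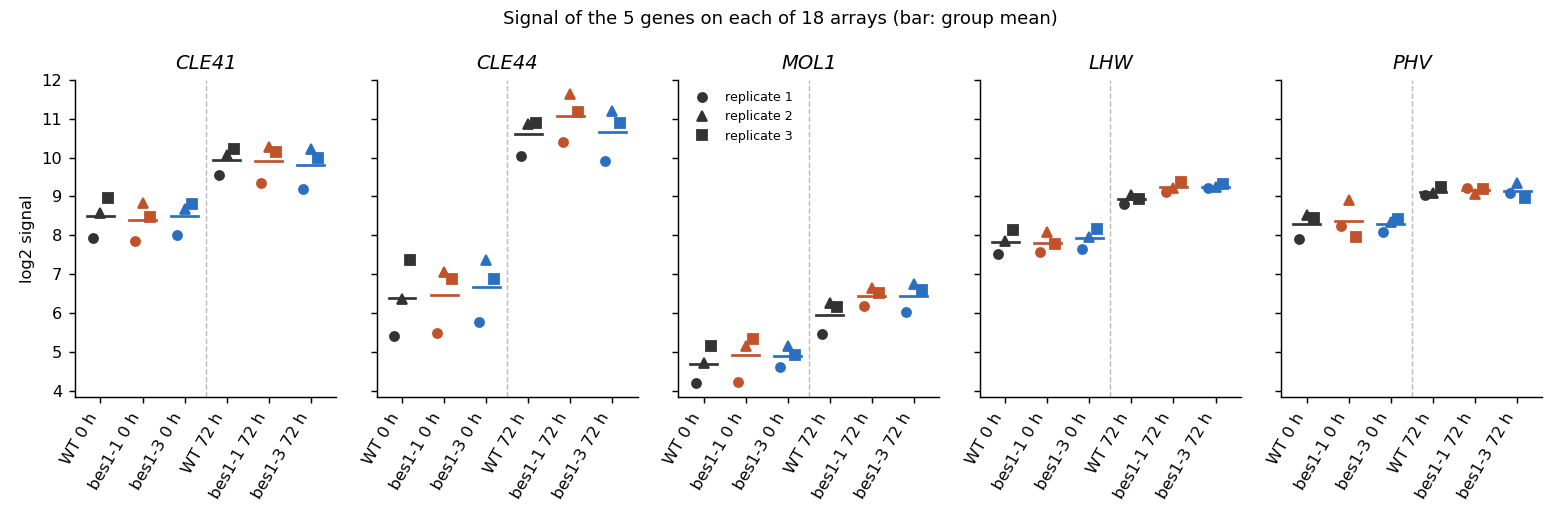
Log2 signal (vertical axis) of CLE41, CLE44, MOL1, LHW and PHV on each of the 18 arrays, grouped by genotype and time. Points are single arrays, with the shape giving the replicate number, and bars are group means of 3 arrays. In all 5 panels the 9 arrays at 72 h lie above the 9 arrays at 0 h, by a gap of 2.55 for CLE44 and 0.05 for PHV.

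The rise was visible on single arrays. For each of the 5 genes, every one of the 9 arrays at 72 h lay above every one of the 9 arrays at 0 h, which held for 7.17% of all probe sets. The gap between the lowest array at 72 h and the highest at 0 h was 2.55 for CLE44, 0.64 for LHW, 0.24 for CLE41, 0.10 for MOL1 and 0.05 for PHV. CLE44 and LHW were thus well parted on the deposited scale, while the times of MOL1 and PHV nearly touched.

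CLE44 was the TDIF gene with the larger change. In WT its log2 signal was 5.40, 6.36 and 7.36 at 0 h in replicates 1, 2 and 3, and 10.04, 10.86 and 10.89 at 72 h. In bes1-1 it was 5.47, 7.06 and 6.86 at 0 h and 10.39, 11.63 and 11.18 at 72 h. In bes1-3 it was 5.77, 7.36 and 6.89 at 0 h and 9.91, 11.20 and 10.89 at 72 h. The array of replicate 1 was the lowest in every group. Within replicate numbers the CLE44 rise ran from 3.53 to 4.64 in WT, from 4.31 to 4.92 in bes1-1 and from 3.85 to 4.14 in bes1-3. The limma adjusted p was 4.39e-05 in WT, 2.59e-05 in bes1-1 and 6.72e-05 in bes1-3, and the rise ranked 336, 79 and 354 from the top among the 38408 probe sets. At 72 h the group means were, from the highest, 11.07 ± 0.63 (SD, n = 3) in bes1-1, 10.67 ± 0.67 in bes1-3 and 10.60 ± 0.48 in WT, and neighbours in this order differed by less than their SD. At 0 h the order was 6.67 ± 0.82 in bes1-3, 6.47 ± 0.86 in bes1-1 and 6.38 ± 0.98 in WT, again closer together than their SD.

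CLE41 encodes the same peptide and changed less. Its log2 signal in WT was 7.93, 8.57 and 8.95 at 0 h and 9.56, 10.07 and 10.22 at 72 h. In bes1-1 it was 7.85, 8.83 and 8.46 at 0 h and 9.34, 10.27 and 10.14 at 72 h, and in bes1-3 it was 8.01, 8.67 and 8.81 at 0 h and 9.19, 10.21 and 10.00 at 72 h. No array at 0 h reached the level of an array at 72 h. CLE41 rose by 1.46 ± 0.38 in WT (limma adjusted p = 0.0101), 1.54 ± 0.38 in bes1-1 (0.00754) and 1.30 ± 0.38 in bes1-3 (0.0196). Within replicate numbers its rise ran from 1.18 to 1.67 over the 3 genotypes. Without WT replicate 1 at 0 h the WT rise was 1.18 and was not called (adjusted p = 0.0547). The bes1-3 rise was not called without replicate 1 at 0 h (adjusted p = 0.0904) or without replicate 2 or 3 at 72 h (adjusted p = 0.0943 and 0.0754).

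The changes of the 2 TDIF genes can be set against each other on the same arrays. The CLE44 rise exceeded the CLE41 rise by 2.76 ± 0.42 (SD over replicates, n = 3) on the log2 scale in WT, 3.06 ± 0.40 in bes1-1 and 2.70 ± 0.34 in bes1-3. The excess was positive in every replicate of every genotype, from 2.27 in WT replicate 3 to 3.42 in bes1-1 replicate 1. This compares changes, not levels, since the signal of different probe sets is not on a common scale.

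**Figure D2:**
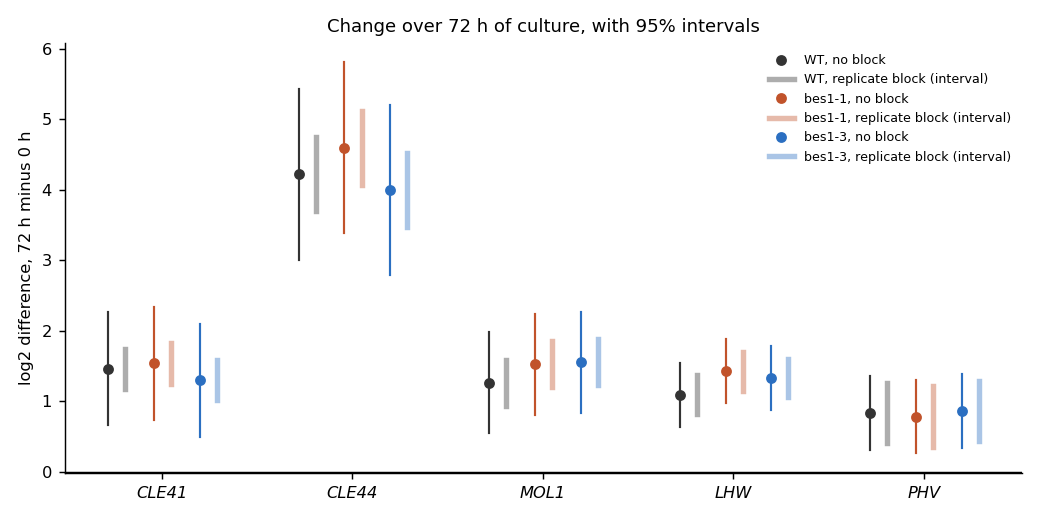
Log2 difference between 72 h and 0 h (vertical axis) for the 5 genes in WT, bes1-1 and bes1-3. Points with thin lines are the fit without a block and its 95% intervals, and thick pale lines are the 95% intervals with the replicate number as a block. No interval reaches 0, and the CLE44 intervals lie above those of the other 4 genes.

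MOL1, the receptor-like kinase, rose from a low signal. In WT its log2 signal was 4.20, 4.72 and 5.14 at 0 h and 5.45, 6.25 and 6.16 at 72 h. In bes1-1 it was 4.24, 5.16 and 5.34 at 0 h and 6.17, 6.64 and 6.51 at 72 h, and in bes1-3 it was 4.61, 5.16 and 4.93 at 0 h and 6.03, 6.73 and 6.58 at 72 h. In each group of 3 at 0 h, 0 arrays had MOL1 above the array's own median signal, and at 72 h all 3 arrays of each group did. Its group means lay above the mean lower quartile of the arrays, with 4.69 against 3.81 in WT at 0 h, the lowest of the 6 groups. MOL1 rose by 1.26 ± 0.34 in WT (limma adjusted p = 0.0127), 1.53 ± 0.34 in bes1-1 (0.00362) and 1.55 ± 0.34 in bes1-3 (0.00271). The WT rise was not called without WT replicate 1 at 0 h (1.02, adjusted p = 0.0657) or without WT replicate 2 or 3 at 72 h (1.12 and 1.16, adjusted p = 0.0634 and 0.0556).

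The 2 transcription factor genes rose less than CLE44 and were tightly grouped at 72 h. LHW had log2 signals of 7.51, 7.86 and 8.13 in WT at 0 h and of 8.81, 9.04 and 8.92 at 72 h. In bes1-1 it had 7.58, 8.07 and 7.78 at 0 h and 9.11, 9.22 and 9.38 at 72 h, and in bes1-3 it had 7.64, 7.97 and 8.17 at 0 h and 9.21, 9.24 and 9.31 at 72 h. The SD of LHW over arrays was 0.25 to 0.31 at 0 h and 0.05 to 0.14 at 72 h. LHW rose by 1.09 ± 0.21 in WT (limma adjusted p = 0.00131), 1.43 ± 0.21 in bes1-1 (1.51e-04) and 1.33 ± 0.21 in bes1-3 (2.14e-04). It and CLE44 were called in all 3 genotypes under every alternative that was run.

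PHV had the smallest rise. Its log2 signal in WT was 7.91, 8.51 and 8.44 at 0 h and 9.04, 9.10 and 9.23 at 72 h. In bes1-1 it was 8.24, 8.92 and 7.95 at 0 h and 9.22, 9.07 and 9.18 at 72 h, and in bes1-3 it was 8.09, 8.33 and 8.41 at 0 h and 9.09, 9.35 and 8.97 at 72 h. The bes1-1 array of replicate 2 was high at 0 h, and within that replicate number PHV rose by only 0.15, against 0.98 and 1.23 in replicates 1 and 3. PHV rose by 0.83 ± 0.25 in WT (limma adjusted p = 0.0237), 0.78 ± 0.25 in bes1-1 (0.0327) and 0.86 ± 0.25 in bes1-3 (0.0185). In a fit of replicates 2 and 3 alone the 3 rises of PHV were not called (0.69, 0.69 and 0.79, adjusted p = 0.1, 0.0844 and 0.0561), nor were they after each array's median was subtracted (0.75, 0.51 and 0.69, adjusted p = 0.0935, 0.216 and 0.11). Leaving out 1 array ended the PHV call in each genotype. This held in WT without replicate 1 at 0 h or replicate 2 or 3 at 72 h (adjusted p = 0.111, 0.0602 and 0.0859), and in bes1-3 without replicate 1 at 0 h or replicate 2 at 72 h (0.0684 and 0.084). In bes1-1 it held without any 1 of its 6 arrays other than replicate 2 at 0 h, with adjusted p up to 0.16. With the replicate number as a block in the fit, all 15 rises of the 5 genes were called, those of PHV at adjusted p = 0.00398, 0.0053 and 0.00299. In that fit 18.9% of all probe sets were called higher in WT, 28.5% in bes1-1 and 24.2% in bes1-3, and 20.8%, 21.9% and 21.3% lower.

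Relatives of these genes, from lists of pathway genes, were measured in part. Of 47 CLE peptide genes 10 were measured, and 4 of them rose in each genotype with 0 lower: CLE41, CLE44, CLE25 and CLE45. CLE25, a further CLE peptide gene, had log2 signals of 4.55 to 6.22 over the 9 arrays at 0 h and of 7.23 to 9.33 at 72 h, with no overlap. It rose by 2.69 ± 0.48 in WT (limma adjusted p = 6.13e-04), 3.44 ± 0.48 in bes1-1 (8.1e-05) and 3.53 ± 0.48 in bes1-3 (4.62e-05). CLE45, a gene of the sieve element lineage, rose by 3.20, 2.22 and 2.87 from group means at 0 h of 3.04 to 3.18, which is under the arrays' lower quartile and makes the sizes uncertain. The other 6 were not called in any genotype by the fit without a block. With the replicate block CLE26 (adjusted p = 0.00166) and CLE22 (0.0159) were called higher in bes1-1, and CLV3 (0.0241) and CLE18 (0.0257) lower. CLE18 was also called lower in bes1-3 with the block (0.0423). Of these, CLV3 of the shoot stem cell niche had group means of 1.82 to 2.37, and CLE18 and CLE27 also lay below the lower quartile in all 6 groups. CLE22 lay below it in all 3 groups at 0 h, and CLE40, which acts in the root meristem, in all groups but bes1-1 and bes1-3 at 0 h, so no size is given for these. CLE26 stood at 0.38, 0.96 and 0.42 in WT, bes1-1 and bes1-3. The median over the 10 genes was 0.52 in WT, 0.85 in bes1-1 and 0.45 in bes1-3, values that rest in part on genes not shown above background.

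On the receptor side, 3 of 14 genes on the CLE receptor list were measured, and of these MOL1 alone was called without a block. A place on this list does not show that MOL1 binds a CLE peptide, which was not tested. PXL2 (AT4G28650), a PXY-like receptor kinase gene, stood at 0.61 ± 0.21 in WT, 0.57 ± 0.21 in bes1-1 and 0.55 ± 0.21 in bes1-3 (limma adjusted p = 0.0525, 0.0684 and 0.074), and was called in all 3 with the replicate block (0.00348, 0.00495 and 0.00588). PXL1 (AT1G08590), the other PXY-like gene, stood at -0.48 ± 0.22, -0.14 ± 0.22 and -0.16 ± 0.22 (0.164, 0.706 and 0.706), and in WT was called lower with the block (0.0109). Of 25 genes listed for TDIF signalling 5 were measured. They were CLE41, CLE44, MOL1, PXL1 and PXL2. The 3 called higher in each genotype were all among the 5 genes picked for this report. Of the other 2 genes on the list, 0 were called higher and 0 lower without a block. Of all probe sets 8.7% were called higher in WT, 10.9% in bes1-1 and 10.3% in bes1-3. Of 37 procambium and cambium regulators the same 5 genes described here were the only ones measured.

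Of 19 genes of the HD-ZIP III and organ polarity list 3 were measured. PHV rose, while YAB3, a YABBY gene of the abaxial side of lateral organs, fell by 1.59 ± 0.45 in WT, 1.75 ± 0.45 in bes1-1 and 1.98 ± 0.45 in bes1-3 (limma adjusted p = 0.0186, 0.0103 and 0.00388). Of all probe sets 10.8% were called lower in WT, 9.76% in bes1-1 and 11.4% in bes1-3. YAB5, a further YABBY gene, fell by 1.42 ± 0.43 in bes1-1 and 1.74 ± 0.43 in bes1-3 (0.0295 and 0.00774). In WT it stood at -0.94 ± 0.43 and was not called (0.175, and 0.00362 with the replicate block).

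**Figure D3:**
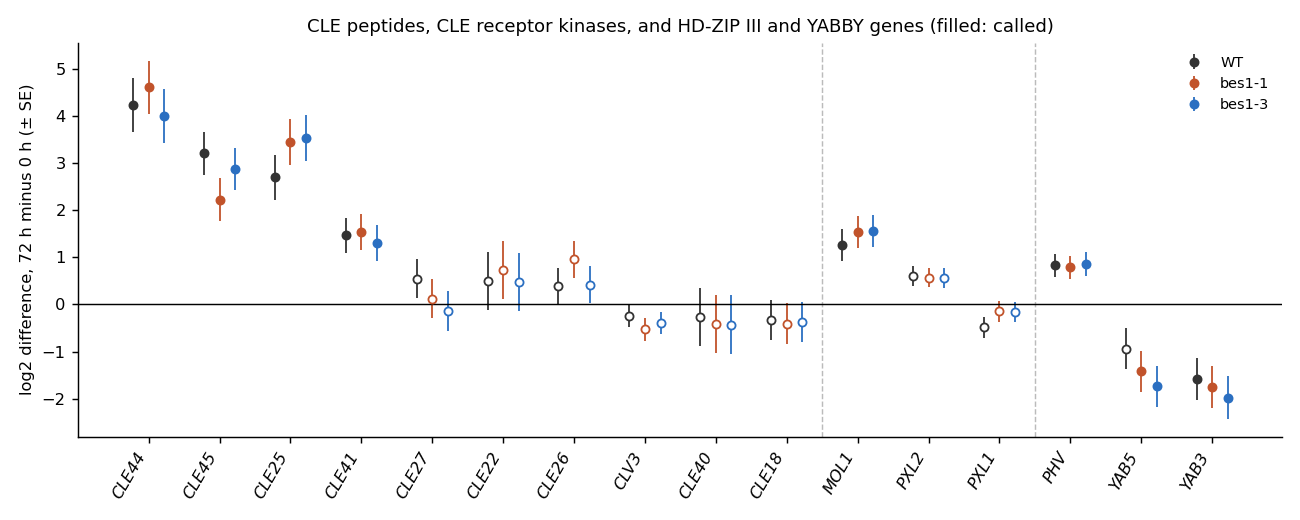
Log2 difference between 72 h and 0 h with its SE (vertical axis) in WT, bes1-1 and bes1-3 for measured genes. Genes are, left to right, 10 CLE peptide genes, 3 of the CLE receptor list and 3 of the HD-ZIP III and organ polarity list. Filled points were called by limma. CLE44, CLE45, CLE25, CLE41, MOL1 and PHV have filled points above 0 in all 3 genotypes.

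Whether the bes1 alleles alter these genes was asked before culture, after it, and in the change between. At 0 h limma called 0 of the 5 genes in either mutant, and 0 of 5 had an unadjusted p under 0.05. Of all 38408 probe sets, 893 in bes1-1 and 364 in bes1-3 had an unadjusted limma p under 0.05. In bes1-1 0.00521% of all probe sets were called higher and 0.0156% lower, and in bes1-3 0.00781% and 0%. The difference from WT in bes1-1 was -0.10 for CLE41, 0.09 for CLE44, 0.23 for MOL1, -0.02 for LHW and 0.08 for PHV. In bes1-3 it was 0.01 for CLE41, 0.29 for CLE44, 0.21 for MOL1, 0.09 for LHW and -0.01 for PHV. The 95% intervals were wide for CLE44 (-1.12 to 1.30 in bes1-1 and -0.92 to 1.51 in bes1-3) and narrower for LHW (-0.48 to 0.43 and -0.36 to 0.55). By that fit a rise of 2-fold in CLE44 at 0 h is within both intervals and would not be told from none. With the replicate block the CLE44 intervals were narrower, at -0.43 to 0.62 in bes1-1 and -0.23 to 0.82 in bes1-3. For bes1-1 at 0 h, however, the same-numbered arrays did not meet the pairing rule given below.

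At 72 h limma without a block again called 0 of the 5 genes in either mutant, with 0 of 5 at an unadjusted p under 0.05. That unadjusted limma p was reached by 3286 of all 38408 probe sets in bes1-1 and by 1957 in bes1-3. In bes1-1 0.245% of all probe sets were called higher and 0.599% lower, and in bes1-3 0.0573% and 0.0729%. CLE44 stood at 0.47 ± 0.57 in bes1-1 (95% interval -0.74 to 1.68) and 0.07 ± 0.57 in bes1-3 (-1.14 to 1.28). CLE41 stood at -0.03 ± 0.38 (-0.83 to 0.77) and -0.15 ± 0.38 (-0.95 to 0.66). With the replicate block the CLE44 intervals were -0.06 to 0.99 and -0.45 to 0.60, and those of CLE41 were -0.32 to 0.26 and -0.43 to 0.14. PHV stood at 0.03 ± 0.25 (-0.49 to 0.56) and 0.01 ± 0.25 (-0.51 to 0.54). For CLE41, CLE44 and PHV the arrays of each mutant overlapped those of WT. With the replicate block 2 of the 5 genes, MOL1 and LHW, had an unadjusted limma p under 0.05 in each mutant. In that fit 7.14% of all probe sets were called higher and 6.3% lower in bes1-1, and 3.85% and 3.46% in bes1-3. Without the block the shift of replicate 1 stays in the spread, so the 0 calls do not show the genes to be unchanged.

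MOL1 and LHW stood above WT at 72 h in both mutants without being called by the fit that has no block. MOL1 differed from WT by 0.49 ± 0.34 in bes1-1 (limma adjusted p = 0.877) and by 0.50 ± 0.34 in bes1-3 (1.00). Within replicate numbers it was higher in each, by 0.35 to 0.73 in bes1-1 and by 0.43 to 0.58 in bes1-3. With the replicate block it was called in bes1-1 (adjusted p = 0.0494) and not in bes1-3 (0.0662), where 7.14% and 3.85% of all probe sets were called higher and 6.3% and 3.46% lower. In replicates 2 and 3 alone MOL1 stood at 0.37 in bes1-1 (adjusted p = 0.272) and 0.46 in bes1-3 (0.256). The arrays of MOL1 overlapped between each mutant and WT, the lowest mutant arrays at 6.17 and 6.03 lying under the highest WT array at 6.25.

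LHW differed from WT at 72 h by 0.31 ± 0.21 in bes1-1 (limma adjusted p = 0.874) and by 0.33 ± 0.21 in bes1-3 (1.00). Every one of the 6 mutant arrays, from 9.11 to 9.38, lay above every one of the 3 WT arrays, from 8.81 to 9.04, as did 4.27% of all probe sets. Both mutants were compared with the same 3 WT arrays, so the differences in MOL1 and LHW are not independent between the alleles. With the replicate block LHW was not called, at adjusted p = 0.127 in bes1-1 and 0.145 in bes1-3, with 95% intervals of 0.04 to 0.59 and 0.05 to 0.60. Both mutants above WT in all 3 replicate numbers, as for MOL1 and LHW, held for 21.5% of all probe sets.

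**Figure D4:**
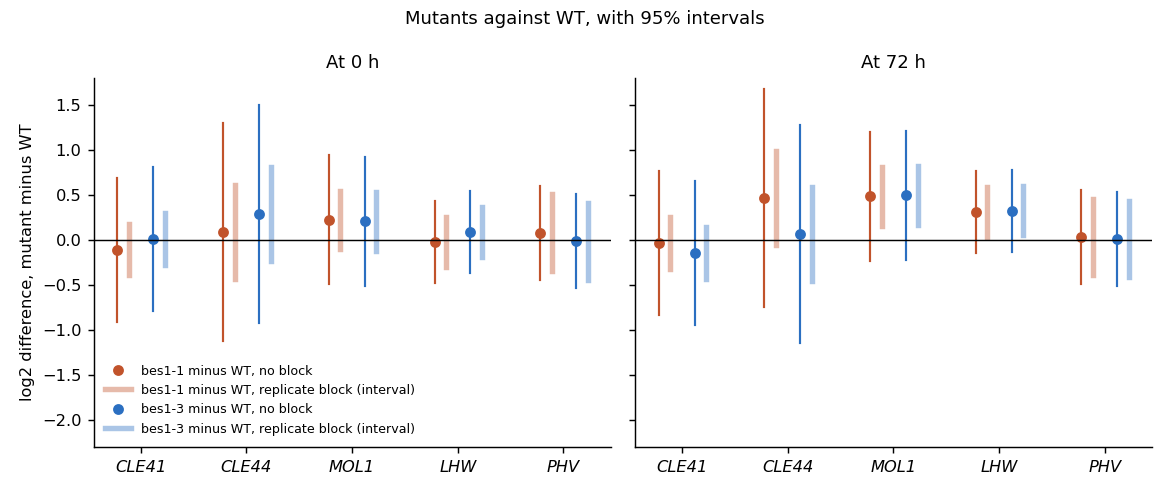
Log2 difference between each mutant and WT (vertical axis) for the 5 genes at 0 h (left) and 72 h (right). Points with thin lines are the fit without a block and its 95% intervals, and thick pale lines are the 95% intervals with the replicate number as a block. All intervals without the block include 0, and at 72 h those of MOL1 and LHW with the block lie above 0.

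The difference in induction, which is the change over 72 h in a mutant minus that in WT, was called for 0 of the 5 genes by limma in either allele, with 0 of 5 at an unadjusted p under 0.05. Among all 38408 probe sets, 2636 for bes1-1 and 975 for bes1-3 had an unadjusted limma p under 0.05. For bes1-1 0.0208% of all probe sets were called higher and 0.0312% lower, and for bes1-3 0% in either direction. In bes1-1 it was 0.38 ± 0.80 for CLE44, 0.08 ± 0.53 for CLE41, 0.26 ± 0.48 for MOL1, 0.33 ± 0.30 for LHW and -0.05 ± 0.35 for PHV. In bes1-3 it was -0.22 ± 0.80 for CLE44, -0.16 ± 0.53 for CLE41, 0.29 ± 0.48 for MOL1, 0.24 ± 0.30 for LHW and 0.02 ± 0.35 for PHV. The 95% interval for CLE44 without a block ran from -1.34 to 2.09 in bes1-1 and from -1.94 to 1.49 in bes1-3. With the replicate block it ran from -0.37 to 1.12 and from -0.97 to 0.52, though the same-numbered arrays did not meet the pairing rule here. Within replicate numbers the CLE44 difference in induction was 0.08 to 0.78 in bes1-1 and -0.65 to 0.47 in bes1-3. The alleles were also set against each other: bes1-1 minus bes1-3 was -0.20 for CLE44, -0.12 for CLE41, 0.02 for MOL1, -0.11 for LHW and 0.10 for PHV at 0 h. At 72 h it was 0.40 for CLE44, 0.12 for CLE41, -0.01 for MOL1, -0.01 for LHW and 0.02 for PHV. Limma called 0 of the 5 at either time, with 0 of 5 at an unadjusted p under 0.05, which 1214 of all 38408 probe sets reached at 0 h and 822 at 72 h. Over all probe sets 0.013% were called higher and 0.0573% lower at 0 h, and 0.00521% each way at 72 h.

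Genes of differentiated vascular cells moved with culture as well, and their part in the rise of the 5 genes was not tested. The summed linear signal of the 3 measured xylem markers of 15, given as log2, was 7.84 to 8.88 over the arrays at 0 h. At 72 h it was 11.94 to 12.79 in WT, 9.80 to 11.55 in bes1-1 and 11.29 to 12.23 in bes1-3, so that the bes1-1 arrays lay below the WT arrays. In bes1-1 at 72 h the xylan synthesis genes IRX15 and IRX15-L fell below WT by 2.88 ± 0.53 and 2.19 ± 0.43 (limma adjusted p = 0.0177 and 0.0285), while GUT2, also of xylan synthesis, stood at -1.49 ± 0.43 (0.163, and 2.86e-04 with the replicate block). In bes1-3 IRX15 stood at -1.58 ± 0.53 (0.586, and 0.0142 with the block), IRX15-L at -0.79 ± 0.43 and GUT2 at -0.38 ± 0.43, both uncalled in either fit. Beside these, the differences of the 5 procambium genes in bes1-1 at 72 h lay between -0.03 and 0.49. The 2 measured sieve element markers of 9, CLE45 and OPS, had a summed log2 signal of 3.97 to 5.70 at 0 h and 7.51 to 8.87 at 72 h. At 72 h CLE45 stood at -1.08 in bes1-1 and -0.29 in bes1-3 relative to WT, and OPS at 1.06 and 1.00. None of these was called by the fit without a block, and with it CLE45 was called lower in bes1-1 (adjusted p = 0.00861). The summed signal of the 4 photosynthesis markers was 13.36 to 13.91 at 0 h and 10.54 to 12.19 at 72 h. SWEET11, the 1 measured of 6 companion cell and phloem parenchyma markers, was 10.94 to 12.25 at 0 h and 6.55 to 9.29 at 72 h. The 3 measured stomatal lineage and epidermis markers of 5 summed to 8.20 to 9.49 at 0 h and 6.43 to 8.20 at 72 h. At 72 h MUTE in every genotype and SPCH in both mutants lay under the lower quartile of the arrays, so the sum there rests mostly on FMA. Group means of FMA were 7.81 at 0 h and 7.52 at 72 h in WT. They were 7.99 and 6.88 in bes1-1, and 7.65 and 6.74 in bes1-3.

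**Figure D5:**
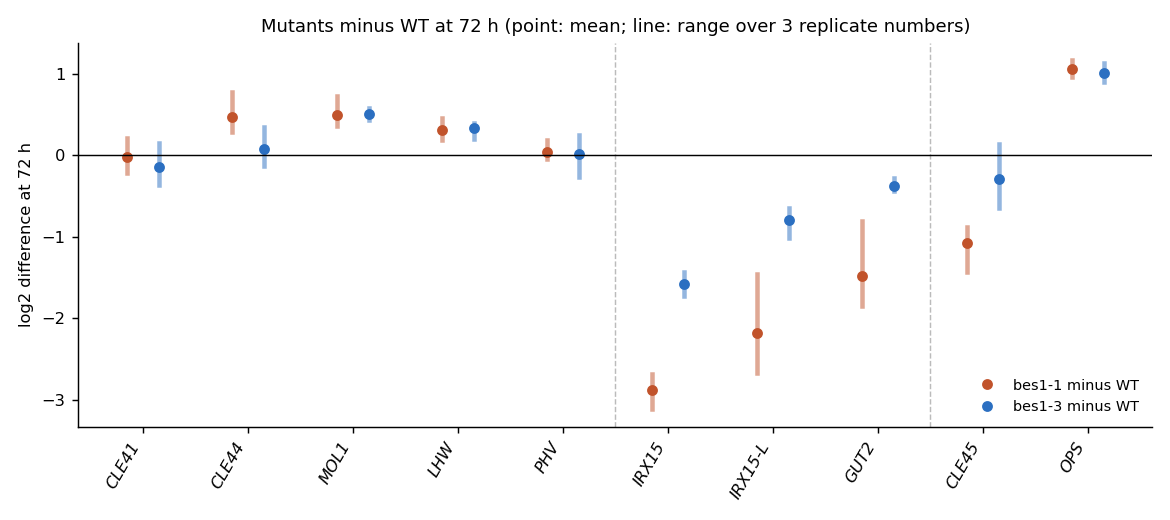
Log2 difference between each mutant and WT at 72 h (vertical axis) for the 5 procambium genes, 3 xylem markers and 2 sieve element markers, left to right. Points are means and lines span the 3 replicate numbers. The means of the 5 procambium genes lie between -0.15 and 0.50, and those of IRX15, IRX15-L and GUT2 between -2.88 and -0.38.

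By the size of their change the 5 genes fell into CLE44 and the rest. Likeness was measured as the root-mean-square difference in log2 signal over the 18 arrays, after the mean over the 6 arrays of the same replicate number had been taken from each value. The measure is not scaled, so it depends on the size of each change. CLE41, MOL1 and LHW differed from each other by 0.20 to 0.28, PHV from these by 0.29 to 0.43, and CLE44 from the others by 1.43 to 1.75. A flat profile lay 0.45 from PHV and 0.66 to 0.76 from CLE41, MOL1 and LHW. PHV was thus about as far from MOL1 (0.43) as from no change. Among the other 16410 genes with a locus, those most like CLE44 were AT2G01990 (0.249), the glycosyl hydrolase gene GH9C2 (0.250) and AT1G61255 (0.270), where CLE44 itself departed from a flat profile by 2.16. These 3 had log2 differences over culture of 3.72 to 4.26 in WT, 4.40 to 4.58 in bes1-1 and 3.53 to 4.09 in bes1-3. The gene most like CLE41 was AT5G45275 (0.155), most like MOL1 was AT5G10080 (0.140), most like LHW was AT3G53320 (0.107) and most like PHV was AT5G11460 (0.163). On quantile-normalized values all 3 genes most like CLE44 were again its nearest, against 2 of 3 for MOL1 and for LHW and 1 of 3 for CLE41 and for PHV. There AT5G10080 and AT3G53320 stayed nearest to MOL1 and LHW. AT5G45275 and AT5G11460 were no longer among the 3 nearest to CLE41 and PHV.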

How the data were processed

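The authors' deposited matrix holds log2 signal for each probe set on the 18 arrays, the log base being inferred here from the range of the values. The submitters' processing notes name Affymetrix Expression Console, and for its version, background correction, normalization and summarisation method the sources used here give nothing. The log2 values entered limma (version 3.58.1, R 4.3.3) as they stood. lmFit estimated a mean for each of the 6 groups, eBayes moderated the variances on 12 residual degrees of freedom, and 11 contrasts were each adjusted by the Benjamini-Hochberg method over 38408 probe sets. The fit was tested on simulated data with independent noise on each array and no shift of replicate 1, so that test does not cover the shift. The plots used matplotlib 3.10.9 under Python 3.11.15.

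Of 17481 probe sets listed by the platform table, 16722 have 1 gene and 759 several, and 20927 probe sets are unnamed. Loci and names came from the TAIR10.1 table of RefSeq, and 16574 probe sets matched. No coordinates were used. Where the mean of a group fell under the averaged lower quartile of its arrays, the gene was treated as not shown above background. The number of arrays limits the precision.

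Named were the 5 genes, every measured gene of the pathway lists that bear on them, and the nearest genes by pattern. The members, lists and tests were chosen with earlier results of these data known. Same-numbered arrays were taken as paired where their deviations from the group means correlated above 0.1 in every pair across probe sets. This held for the 3 inductions (lowest r = 0.168), both mutants at 72 h (0.172), bes1-3 at 0 h (0.189) and both allele contrasts (0.221), and not for bes1-1 at 0 h (0.0106) or the differences in induction (0.0106 and 0.0802). The pairing is read from the data, as no label states it. The lower scale of replicate 1 is shared by all groups and can by itself raise these correlations in each replicate number. Arrays of unlike number were not compared, so the check cannot tell pairing by number from that shift.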

Additional observations from a re-analysis of the deposited data

How the results depend on the processing

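The rises over culture kept their direction in all 225 alternative values of the 5 genes, and 198 of these were called. CLE44 and LHW were called in every one. The other 27 kept the direction without being called, 20 of them for PHV. Leaving out 1 array at a time gave 2 to 5 of the 5 genes called in WT, 4 to 5 in bes1-1 and 3 to 5 in bes1-3, the fewest in WT when replicate 1 at 0 h was dropped and in bes1-3 when replicate 1 at 0 h or replicate 2 at 72 h was dropped. The PHV rise was also not called when only the groups compared were fitted (adjusted p = 0.0958, 0.164 and 0.0604 in WT, bes1-1 and bes1-3), nor in bes1-3 after the mean of the 3 measured reference genes was subtracted (0.062). Why the calls were lost was not tested. Subtracting array medians moved the median of all probe sets to -0.12, -0.24 and -0.13 in the 3 inductions, and subtracting the reference genes to -0.11, 0.00 and -0.13.

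Against WT at 72 h in bes1-1, 1 of the 5 genes, MOL1, was called with the replicate block (adjusted p = 0.0494), and 1, again MOL1, with replicate 1 set apart from replicates 2 and 3 as a block (0.0394), an alternative chosen after seeing the data. With the replicate block 7.14% of all probe sets were called higher in this contrast and 6.3% lower. Over all alternatives the probe sets called in it numbered 2 to 5224, against 324 in the fit without a block. The replicate block changed no other call of the 5 genes. For bes1-1 at 0 h and for both differences in induction the same-numbered arrays did not meet the pairing rule. With the block these contrasts had 0 of the 5 genes called, and the calls over all probe sets went from 8 to 41 for bes1-1 at 0 h, from 20 to 3199 for the difference in induction of bes1-1 and from 0 to 431 for that of bes1-3.

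The uncalled differences had small values, and 95 of their 660 alternative values changed sign. In replicates 2 and 3 alone PHV stood at -0.039 in bes1-1 and CLE41 at -0.020 in bes1-3 against WT at 0 h, CLE41 at 0.065 and PHV at -0.040 in bes1-1 and PHV at -0.0085 in bes1-3 at 72 h, and LHW at 0.031 and PHV at -0.031 between the alleles at 72 h. After quantile normalization LHW stood at 0.015 in bes1-1 at 0 h, PHV at -0.023 in bes1-3 at 72 h and at -0.014 in its difference in induction, and LHW at 0.0050 between the alleles at 72 h. With array medians subtracted LHW stood at 0.046 in bes1-1 at 0 h, PHV at -0.090 in bes1-1 and -0.061 in bes1-3 at 72 h, CLE44 at -0.0030 in bes1-3 at 72 h, CLE41 at -0.11 in the bes1-1 and PHV at -0.055 in the bes1-3 difference in induction, and PHV at -0.029 between the alleles at 72 h. With the reference genes subtracted PHV stood at 0.060 in bes1-3 at 0 h, CLE41 at 0.0040 in bes1-1 at 72 h, PHV at -0.055 in the bes1-3 difference in induction, and between the alleles MOL1 at -0.071 at 0 h and 0.034 at 72 h and LHW at 0.028 at 72 h. All of these remained uncalled, and the cause was not tested.

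With 1 array left out at a time, the results that changed sign ran as follows. Against WT at 0 h, bes1-1 ran over -0.38 to 0.16 for CLE41, -0.39 to 0.59 for CLE44, -0.019 to 0.56 for MOL1, -0.18 to 0.13 for LHW and -0.19 to 0.29 for PHV. There bes1-3 ran over -0.26 to 0.26 for CLE41, -0.19 to 0.79 for CLE44, -0.035 to 0.44 for MOL1, -0.071 to 0.24 for LHW and -0.20 to 0.10 for PHV. At 72 h bes1-1 ran over -0.22 to 0.26 for CLE41 and -0.0079 to 0.090 for PHV, and bes1-3 over -0.35 to 0.16 for CLE41, -0.21 to 0.45 for CLE44 and -0.092 to 0.098 for PHV. The difference in induction ran over -0.19 to 0.36 for CLE41, -0.12 to 0.86 for CLE44, -0.074 to 0.51 for MOL1 and -0.26 to 0.22 for PHV in bes1-1, and over -0.41 to 0.14 for CLE41, -0.72 to 0.26 for CLE44 and -0.089 to 0.21 for PHV in bes1-3. The alleles differed by -0.36 to 0.15 for CLE41, -0.65 to 0.29 for CLE44, -0.20 to 0.35 for MOL1, -0.26 to 0.0099 for LHW and -0.18 to 0.30 for PHV at 0 h, and by -0.19 to 0.40 for CLE41, -0.22 to 0.13 for MOL1, -0.086 to 0.051 for LHW and -0.063 to 0.13 for PHV at 72 h.

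Over all alternatives the probe sets called numbered 6175 to 15291 in the WT induction, 5321 to 19376 in bes1-1 and 6705 to 17674 in bes1-3. Against WT at 72 h they numbered 2 to 5224 in bes1-1 and 0 to 2915 in bes1-3. Leaving out dim probe sets kept 31265, with all 5 genes among them. No alternative with another probe set of a gene was run, since each has 1. The number of arrays, 3 per group, limits the precision.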
